A study of Mus musculus with 6 samples.

Results

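The 9 genes described here make and break down heme, the iron porphyrin carried by cytochromes, catalase and guanylate cyclase. They are Alas1, Alad, Uros, Urod, Cpox, Ppox and Fech, which encode 7 enzymes of heme synthesis, and Hmox1 and Hmox2, which encode the heme oxygenases. They were chosen by gene symbol and all 9 were found among the 24411 genes of the deposited tables. All 9 also passed the filter on low counts, which kept 17110 genes. RNA came from whole testes of age-matched C57BL/6 mice, an inbred strain, with 1 library per animal. In 3 libraries the genotype label is MRP5-/- and MRP9-/- (called labelled DKO, for double knockout), and in the other 3 it is Wildtype (called labelled WT). MRP5 and MRP9 are transporters of the ABCC family encoded by Abcc5 and Abcc12. The labels state the age match without an age, no treatment is stated, and the kind of allele is not described, so whole testes lacking both transporters are compared only as far as the genotype label goes.

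Heme synthesis starts and ends in mitochondria and passes through the cytosol between. Alas1, the housekeeping 5-aminolevulinate synthase, condenses glycine with succinyl-CoA and sets the rate of the pathway in most tissues, while Alas2 does the same in red cell precursors. Alad, Uros and Urod act in the cytosol on the way to the porphyrin ring, Cpox and Ppox oxidise it in mitochondria, and Fech inserts iron. Hmox1 and Hmox2 open the ring to release iron, carbon monoxide and biliverdin. Hmox1 is induced by heme and oxidative stress, and Hmox2 is constitutive and known to be abundant in brain and testis. MRP5 is known as an exporter of heme.

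Depth was 26753721 to 31745969 expected counts in libraries labelled WT and 42673615 to 67131103 in those labelled DKO, and the mean sequenced fragment was 230 to 258 bases in the former and 276 to 317 in the latter, so neither overlapped between the groups. Genotype and fragment length cannot be told apart by any batch in the labels. Abcc12 was lower in libraries labelled DKO (79.0 ± 5.56 against 160 ± 3.93 CPM, the count relative to the scaled library size; SD, n = 3 each; log2 fold change -1.02; edgeR quasi-likelihood adjusted p = 0.000307). Abcc5 was higher (16.8 ± 0.190 against 11.4 ± 0.898 CPM; log2 fold change 0.56; edgeR adjusted p = 0.0225), which goes against a loss of its transcript, so groups are named by their labels. The Abcc5 call was lost without DKO replicate 1 (log2 fold change 0.54, edgeR adjusted p = 0.0980), WT replicate 2 (0.61, 0.0562) or WT replicate 3 (0.56, 0.0993). Those fits called 11, 13 and 7 genes over the whole table. In limma on log2(TPM + 1) the log2 fold change of Abcc5 was 0.27 (adjusted p = 0.107). The Abcc5 call was also lost in limma on log2(TPM + 0.1) (0.33, adjusted p = 0.105) and with the fragment length as a covariate (0.64, edgeR adjusted p = 0.999). The Abcc12 call held in every alternative run. The spermatid genes Prm1, Prm2 and Tnp1 each had at least 21190 TPM (a level scaled by transcript length and library) in every library, in keeping with the tissue label.

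Sequence in front of the genes was available for 7 of the 9 members, as RefSeq windows on build GRCm38.p6 of 250 bases before to 50 bases after a transcript start. Fech and Hmox1 had no entry. Alas1 lies at chr9:106233455-106247954, Alad at chr4:62505984-62520063 and Urod at chr4:116989965-116994436, all on the minus strand. The sequences of Alad and Urod are shown because these are the synthesis genes with the lowest p, and the Alas1 site because Alas1 is the gate of the pathway. All are written 5′ to 3′ on the minus strand. For Alad and Urod they are the 250 bases before the transcript start of the upstream-most window, at chr4:62520064-62520313 and chr4:116994414-116994663. The Urod window is set by a transcript start that lies inside the gene as RefSeq places it, so the last bases of its sequence lie inside the gene. Capitals mark 3 kinds of letters on either strand: CACGTG (an E-box), CCAAT or its complement ATTGG (the CCAAT box) and GGGCGG or its complement CCGCCC (the GC box). The Alas1 site is the 30 bases at chr9:106247906-106247935, within an annotated exon, where capitals mark GCGCATGC and its complement GCATGCGC, which overlap each other there and are known letters of binding sites of the factor NRF1.
Alad: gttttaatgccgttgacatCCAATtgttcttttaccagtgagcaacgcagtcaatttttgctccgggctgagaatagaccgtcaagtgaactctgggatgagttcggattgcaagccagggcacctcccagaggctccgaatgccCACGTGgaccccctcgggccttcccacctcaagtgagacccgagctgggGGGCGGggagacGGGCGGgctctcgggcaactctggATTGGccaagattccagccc
Urod: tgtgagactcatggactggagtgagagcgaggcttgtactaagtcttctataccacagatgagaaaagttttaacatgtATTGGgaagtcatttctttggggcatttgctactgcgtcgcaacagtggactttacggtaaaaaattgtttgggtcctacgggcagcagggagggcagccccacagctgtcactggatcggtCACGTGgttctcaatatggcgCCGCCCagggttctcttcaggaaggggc
Alas1: cgcacccaagGCGCATGCGCggcggtcact

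Some members have several windows, and the 7 have 12 in all. Windows of the same gene can overlap, so the same bases can be counted again. This was so for the Alas1 site, a CCAAT box of Alad, and GC boxes of Alad and Hmox2. The counts out of 12 are therefore not counts of separate sites. The E-box CACGTG was in 4 of the 12 (from Alad, Uros and Urod) and in 7.15% of all 32817 mouse windows of 300 bases. GCGCATGC or its complement was in 2 of the 12, both of Alas1, and in 2.71% of all windows. These 2 windows overlap and hold the same site. The CCAAT box was in 4 of the 12 (from Alad, Urod and Ppox) and in 37.4% of all windows. The window of Ppox held 4 copies, and 1.06% of all windows held 4 or more. The GC box was in 8 of the 12, from 6 members, and in 35.6% of all. Neither TGACGTCA (the cyclic AMP response element, in 1.79% of all windows) nor TGACNNNGC (the antioxidant response element bound by NFE2L2, in 12.4%) was found in a member's window. A match describes letters only.

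Transcript levels differed widely within the pathway, and a single breakdown gene was far above all others. Hmox2 was the most abundant, at 839 ± 14.6 TPM in libraries labelled WT (SD, n = 3), above 99.1% of all tested genes. Alas1 came next at 59.8 ± 5.58 TPM, above 83.5% of tested genes. Fech, which inserts iron at the last step, followed at 19.0 ± 2.64 TPM, then Urod at 14.2 ± 1.36 and Hmox1 at 13.6 ± 2.27 TPM. Urod and Hmox1 had overlapping ranges, so their order was not resolved. Alad (9.55 ± 0.983 TPM) and Uros (8.53 ± 0.448 TPM) lay close below, with ranges that just failed to meet. Ppox (2.75 ± 0.790 TPM) and Cpox (2.20 ± 0.201 TPM), the pair of mitochondrial oxidases, were lowest and overlapped. In libraries labelled DKO the first 5 ranks were held by the same genes, while Alad (7.34 ± 1.26 TPM) and Uros (8.72 ± 0.465 TPM) exchanged places with overlapping ranges, as did Ppox and Cpox. TPM is scaled by transcript length, so these levels can be set side by side between genes.

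**Figure D1:**
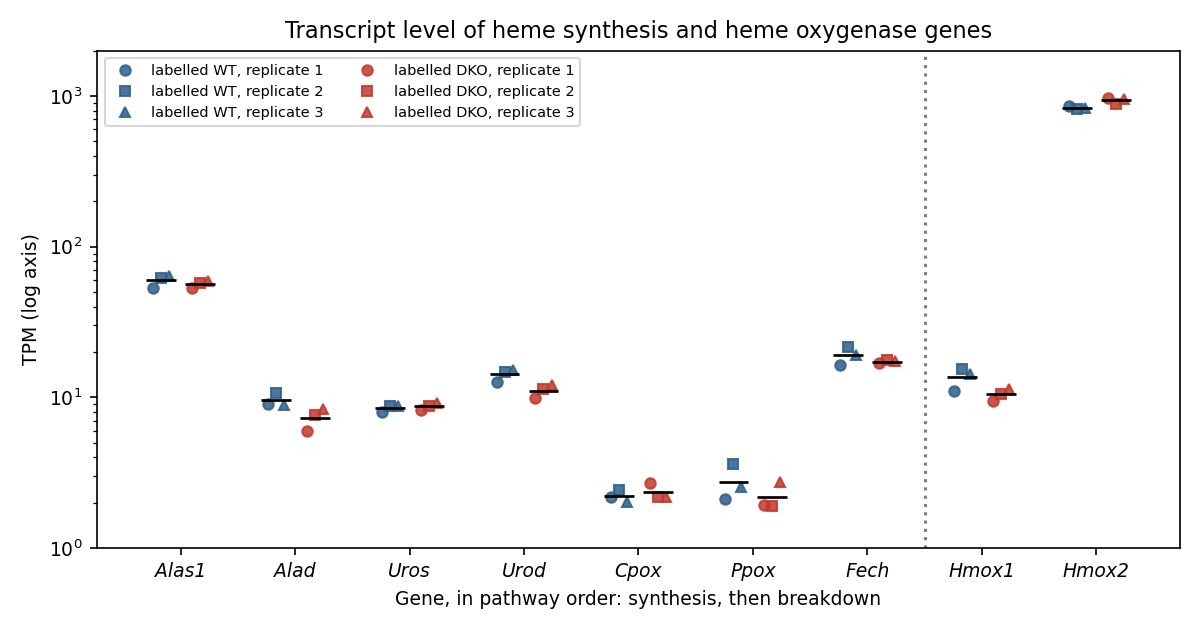
TPM of each gene (log axis) in the 3 libraries labelled WT and the 3 labelled DKO, in pathway order, with a bar at the group mean. Hmox2 lies between 825 and 966 TPM in every library, and Cpox and Ppox lie at or below 3.63 TPM.

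None of the 9 genes passed the threshold between libraries labelled DKO and labelled WT (edgeR quasi-likelihood test, adjusted p under 0.05 over all 17110 tested genes, of which 10.8% were called). At an unadjusted p under 0.05 there were 4 of 9, against 31.7% of all tested genes, namely Alad, Urod and Hmox1 with lower and Hmox2 with higher estimates. These same 4 did not overlap between groups in CPM, against 35.9% of tested genes. Both shares are near those of all genes and are no result about heme genes. The median log2 fold change of the 9 was -0.07, with 6 of 9 below 0, against a median of -0.0042 over all tested genes. DESeq2, an alternative count test, called 2 of the 9 (Alad and Hmox1, both lower), against 20.8% of the genes for which it gave an adjusted p.

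**Figure D2:**
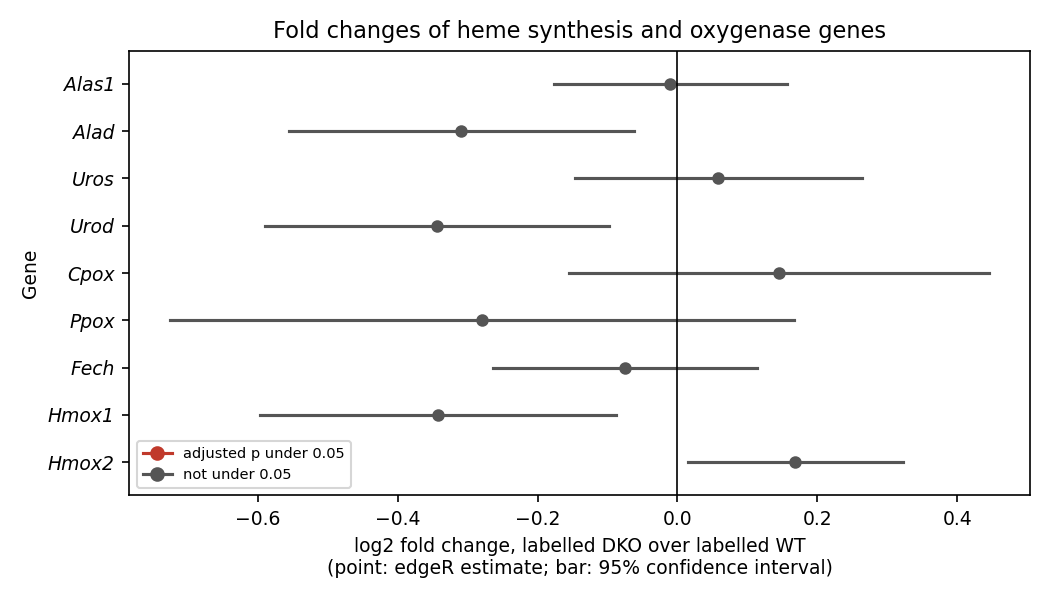
Log2 fold change of each gene, labelled DKO over labelled WT, with its 95% confidence interval from the edgeR fit. The intervals of Alad, Urod, Hmox1 and Hmox2 leave out 0 before adjustment, and no gene passes the adjusted threshold.

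Alas1, the first and rate-setting enzyme, was at the same level in both groups within the spread of the libraries. It had 101, 111 and 108 CPM in the libraries labelled DKO and 100.3, 106 and 115 CPM in those labelled WT. The lowest library of each group was replicate 1, and the libraries labelled DKO all fell inside the range of those labelled WT. The log2 fold change was -0.0099 (SE 0.0760, 95% confidence interval -0.18 to 0.16; edgeR adjusted p = 0.942). Alas2, the red cell form, was also present, at 17.1 to 22.9 TPM in libraries labelled DKO and 17.4 to 21.7 TPM in those labelled WT (log2 fold change 0.02; adjusted p = 0.920). It made up 24.9% ± 0.807 of the summed TPM of the 2 synthase genes in libraries labelled WT and 25.5% ± 2.41 in those labelled DKO (SD, n = 3 each). Of the other red cell markers, Hba-a2 and Hbb-bs are listed at 0 in all 6 libraries, and Slc4a1 was at most 0.15 TPM. The like globin genes Hba-a1 and Hbb-bt had 1.16 to 19.55 TPM and at most 1.10 TPM. Hbb-bt carried fractional expected counts, and how fragments were divided among the globin genes was not tested. The 5 markers used here other than Alas2 summed to 1.74 to 4.12 TPM in libraries labelled WT and to 1.27 to 20.7 TPM in those labelled DKO, where the highest value came from Hba-a1 in replicate 2. Alas2 in that library, at 17.1 TPM, was the lowest of all 6.

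Alad, which joins a pair of aminolevulinate molecules into porphobilinogen, had lower estimates in libraries labelled DKO. It had 17.9, 23.7 and 24.0 CPM in libraries labelled DKO and 27.0, 29.0 and 25.4 CPM in those labelled WT. Every value labelled DKO lay below every value labelled WT, by the least margin between DKO replicate 3 and WT replicate 3. The estimate was 80.7% of the labelled WT level (log2 fold change -0.31, SE 0.113, interval -0.56 to -0.06; edgeR adjusted p = 0.0883). Alad passed the threshold without DKO replicate 3 (log2 fold change -0.38, edgeR adjusted p = 0.0413), where 17.7% of all genes were called. It also passed with DESeq2 (adjusted p = 0.0458). Without DKO replicate 1 the estimate was -0.20 (edgeR adjusted p = 0.227), where 11 of all 17097 genes were called. With fragment length as a covariate the estimate was 0.11 (edgeR adjusted p = 0.999). Fragment length did not overlap between the groups, so that fit separates it poorly from genotype.

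Urod, which removes carboxyl groups from uroporphyrinogen, showed the lowest fold change of the synthesis genes. It had 6.22, 7.48 and 7.49 CPM in libraries labelled DKO and 8.27, 8.95 and 9.70 CPM in those labelled WT. Replicate 1 was the lowest library of each group, and the groups did not overlap. The estimate was 78.8% of the labelled WT level (log2 fold change -0.34, SE 0.112, interval -0.59 to -0.10; edgeR adjusted p = 0.0656). Without WT replicate 1 it passed the threshold (log2 fold change -0.41, adjusted p = 0.0494; 11.7% of all genes were called in that fit). Urod rests on 218 to 506 expected counts per library, and its single annotated transcript of 1199 bases is the shortest of the 9.

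Uros (chr7:133686142-133710467), which closes the ring, had 8.84, 9.66 and 9.18 CPM in libraries labelled DKO and 8.58, 8.72 and 9.28 CPM in those labelled WT. These ranges overlapped (log2 fold change 0.06, interval -0.15 to 0.26; edgeR adjusted p = 0.705).

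Transcripts of the mitochondrial steps did not differ beyond the spread of the libraries either. Cpox (chr16:58670208-58680391), which oxidises coproporphyrinogen, had 5.50, 4.54 and 4.23 CPM in libraries labelled DKO and 4.44, 4.48 and 3.94 CPM in those labelled WT. Its highest value, in DKO replicate 1, stood above the other 5, which overlapped (log2 fold change 0.15, interval -0.15 to 0.45; edgeR adjusted p = 0.496). Ppox (chr1:171276991-171281193), which makes protoporphyrin, had 2.07, 2.11 and 2.86 CPM in libraries labelled DKO and 2.28, 3.64 and 2.65 CPM in those labelled WT. Its interval was the widest of the 9, at -0.72 to 0.17 (log2 fold change -0.28; edgeR adjusted p = 0.370), on 60 to 193 counts per library. Fech (chr18:64456542-64489098) had 30.99, 33.4 and 30.6 CPM in libraries labelled DKO and 29.9, 36.3 and 33.9 CPM in those labelled WT. The libraries labelled DKO all fell inside the range of those labelled WT (log2 fold change -0.07, interval -0.26 to 0.11; edgeR adjusted p = 0.584).

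The oxygenase transcripts were mostly Hmox2, which made up 98.2% to 98.7% of the summed oxygenase TPM in libraries labelled WT and 98.8% to 99.0% in those labelled DKO. These are transcript shares in whole tissue and give no measure of enzyme activity. Hmox2 (chr16:4726361-4766742) had 645, 623 and 623 CPM in libraries labelled DKO and 590, 531 and 562 CPM in those labelled WT. The groups did not overlap. The estimate was 112% of the labelled WT level (log2 fold change 0.17, SE 0.0700, interval 0.02 to 0.32; edgeR adjusted p = 0.124). It stayed above 0 in all 17 other fits, from 0.05 with the fragment length as a covariate to 0.20 with the effective-length offset, and passed the threshold in none. Alone among the 9, Hmox2 carried fractional expected counts, so some of its fragments were shared with other genes.

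Hmox1 (chr8:75093618-75100593), the inducible oxygenase, had lower estimates in libraries labelled DKO. It had 8.51, 9.88 and 9.87 CPM in libraries labelled DKO and 10.1, 13.04 and 12.7 CPM in those labelled WT. In CPM the groups just failed to overlap, with WT replicate 1 nearest to the libraries labelled DKO. In TPM they overlapped, since DKO replicate 3 had 11.3 TPM and WT replicate 1 had 11.02. The estimate was 78.9% of the labelled WT level (log2 fold change -0.34, SE 0.116, interval -0.60 to -0.09; edgeR adjusted p = 0.0726). Hmox1 passed the threshold without WT replicate 1 (log2 fold change -0.46, edgeR adjusted p = 0.0291), where 11.7% of all genes were called. It also passed with DESeq2 (adjusted p = 0.0465). With fragment length as a covariate the estimate was 0.02 (edgeR adjusted p = 0.999), in a fit that separates fragment length poorly from genotype. The ratio of Hmox2 to Hmox1 TPM was 102, 84.2 and 84.2 in libraries labelled DKO and 77.5, 53.7 and 58.7 in those labelled WT, without overlap. The ratio was chosen with both genes' values known and was not tested.

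Both oxygenase genes share a chromosome with a targeted gene. Hmox1 lies 11.4 Mb from Abcc12 on chromosome 8, and Hmox2 lies 15.6 Mb from Abcc5 on chromosome 16, where Cpox lies 38.2 Mb from Abcc5. Whether sequence linked to the engineered alleles bears on these genes was not tested. Exons of 4 members overlap a gene on the opposite strand in GENCODE M21: Alas1 with 4930500F10Rik, Cpox with Gpr15, Ppox with B4galt3 and Hmox2 with Cdip1. Strand handling is not stated, so reads from the overlapping exons could not be checked for strand. Of these 4 members, Hmox2 alone carried fractional expected counts. Cdip1 was at 22.1 to 25.8 TPM and B4galt3 at 12.8 to 15.5 TPM over the 6 libraries, and B4galt3 was thus above Ppox in each. Gpr15 was at 7.03 to 8.68 TPM, above Cpox (2.01 to 2.69 TPM) in each library.

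The mix of transcripts was read from the abundance-weighted length of the 4 members with more than 1 annotated transcript. For Alas1 it was 2970 ± 15.2 bases in libraries labelled DKO and 2956 ± 12.7 in those labelled WT (SD, n = 3 each; exact permutation test, two-sided, p = 0.3). For Hmox2 it was 1251.3 ± 0.1002 against 1251.1 ± 0.177 bases (exact permutation p = 0.2), and for Alad 4533.3 ± 1.58 against 4534.0 ± 0.599 bases (exact permutation p = 0.6). For Uros, with 4 transcripts, it was 1797 ± 30.5 against 1811 ± 15.5 bases (exact permutation p = 0.7). With 3 against 3 libraries the smallest p is 0.1, and all 4 ranges overlapped.

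In whole tissue, fewer cells of a type and less RNA per cell cannot be told apart, and some markers of Leydig and Sertoli cells, which lie between and inside the tubules, were called lower in libraries labelled DKO. Hmox1 is known from macrophages and Leydig cells, the steroid-producing cells of the testis. The 7 macrophage markers summed to 40.3 to 49.4 TPM in libraries labelled DKO and 37.8 to 65.8 TPM in those labelled WT, with 0 of 7 called by edgeR (2 of 7 at an unadjusted p under 0.05, Cd68 with a log2 fold change of -0.70 and Mrc1 with 0.21, and 0 by DESeq2) and none at 0. The 7 Leydig markers summed to 845 to 1502 TPM in libraries labelled DKO and 1482 to 3105 TPM in those labelled WT, with 3 of 7 called by edgeR, all lower (Star, Hsd3b6 and Insl3), and none at 0. DESeq2 called 2 of these 3, and Insl3 had an adjusted p of 0.0620 there. Insl3 alone had 582 to 1193 TPM in libraries labelled DKO and 1215 to 2576 TPM in those labelled WT, most of the sum. Cyp17a1 and Lhcgr were also lower at an unadjusted edgeR p under 0.05. Cyp11a1 overlapped between groups (log2 fold change -0.20, edgeR adjusted p = 0.544). Hsd3b1 alone had an estimate above 0 (0.21, edgeR adjusted p = 0.384). WT replicate 1 was lowest of the libraries labelled WT in both sums and in Hmox1. Among the libraries labelled DKO the order differed: replicate 3 had the highest Hmox1 (11.29 TPM) with the lowest Leydig sum (845 TPM) and the highest macrophage sum (49.4 TPM), and replicate 1 had the lowest Hmox1 (9.45 TPM) and was lowest in neither sum. The 6 Sertoli markers summed to 124 to 137 TPM against 145 to 173 TPM, with 2 called lower (Cldn11 and Rhox5, both also by DESeq2). The 5 endothelial and peritubular markers summed to 44.0 to 54.9 TPM against 50.6 to 73.5 TPM, with 0 called by edgeR (3 at an unadjusted p under 0.05, Cdh5, Acta2 and Myh11, and of these Acta2 and Myh11 by DESeq2). Of the germ cell lists, the 5 spermatocyte markers summed to 630 to 821 TPM in libraries labelled DKO and 541 to 588 TPM in those labelled WT, with 2 called higher by edgeR (Sycp3 and Hormad1). Hormad1 was close to the threshold and overlapped between groups (edgeR adjusted p = 0.0498), and DESeq2 called Sycp3 alone (adjusted p = 0.0921 for Hormad1). The 5 spermatid markers summed to 92260 to 100900 TPM against 87180 to 94660 TPM, with 0 called by edgeR (0 at an unadjusted p under 0.05, and 0 by DESeq2). Prm1, Prm2 and Tnp1 make up most of this sum, and their edgeR log2 fold changes were below 0 (-0.22, -0.11 and -0.16). Those of Acrv1 and Spaca1 were above 0 (0.17 and 0.03). The TPM sum therefore does not show the direction in counts. The part of these shifts in the values of Hmox1, Hmox2, Alad and Urod, and in those of the partner genes described below, was not tested.

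**Figure D3:**
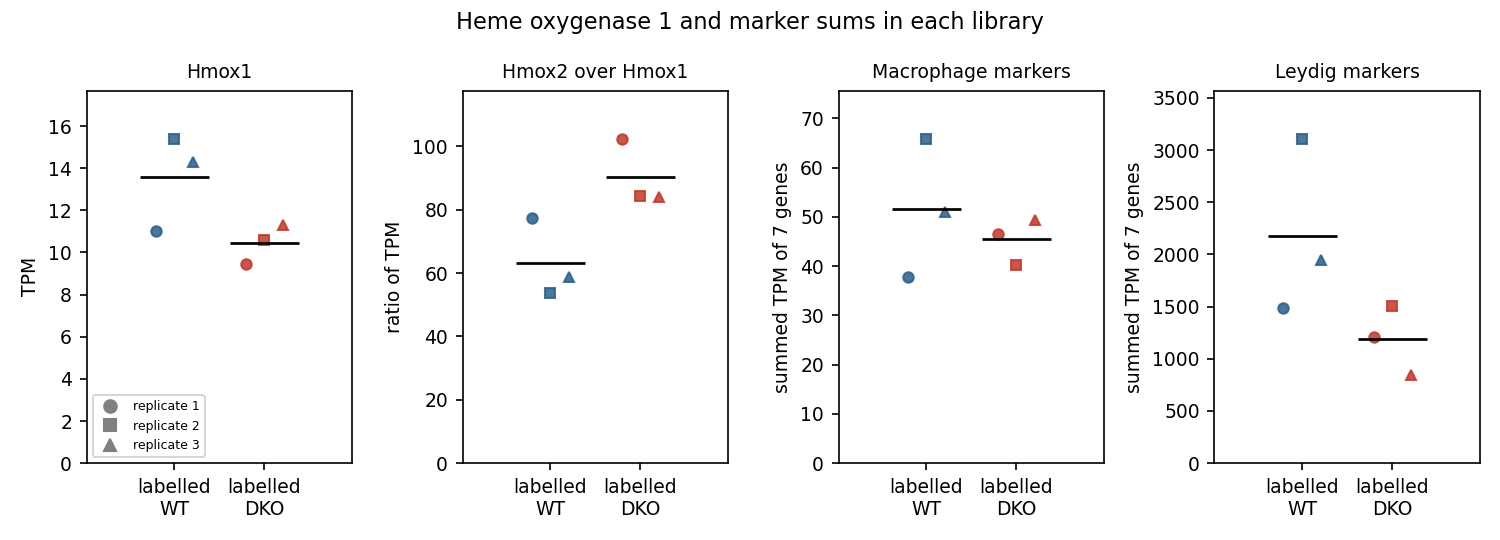
Hmox1 in TPM, the ratio of Hmox2 to Hmox1 TPM, and the summed TPM of 7 macrophage and of 7 Leydig markers in each library, with a bar at the group mean and linear axes from 0. WT replicate 1 is lowest of the libraries labelled WT for Hmox1 (11.02 TPM) and for both marker sums, and highest of them for the ratio (77.5). DKO replicate 3 has the highest Hmox1 of the libraries labelled DKO (11.29 TPM) and the lowest Leydig sum (845 TPM). Insl3 makes up most of the Leydig sum in each library.

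Other genes of heme handling were taken from a list of 31, all of them tested. Of these, 1 was called lower and 1 higher by edgeR, against 5.1% and 5.75% of all tested genes. Their median log2 fold change was -0.07. DESeq2 called 4 of them (Blvrb, Por and Pgrmc1 lower, and Clpx higher), against 20.8% of all genes with a DESeq2 adjusted p.

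Blvrb was the lower gene. It encodes biliverdin reductase B, which acts on products of heme breakdown and on flavins. It had 7.54, 8.46 and 6.96 TPM in libraries labelled DKO and 9.70, 19.0 and 12.2 TPM in those labelled WT. The groups did not overlap, and WT replicate 2 was far above the other libraries labelled WT. The libraries labelled WT had the same order in Blvrb as in the Leydig and macrophage marker sums. Those labelled DKO had the order of the Leydig sum but not of the macrophage sum. Whether cell composition bears on Blvrb was not tested. Blvrb fell by 0.87 on the log2 scale (SE 0.206; edgeR adjusted p = 0.0335), and without WT replicate 2 it was -0.59 (adjusted p = 0.109). It also missed the threshold without DKO replicate 1 (log2 fold change -0.86, edgeR adjusted p = 0.135), DKO replicate 2 (-0.99, 0.0553) or WT replicate 3 (-0.94, 0.101). These fits called 11, 655 and 7 genes over the whole table, and the fit without WT replicate 2 called 13. Blvra, the partner of Blvrb and the main biliverdin reductase, overlapped between groups at 7.81 to 9.20 and 7.72 to 10.6 TPM (log2 fold change -0.14, edgeR adjusted p = 0.480). Por, the reductase that passes electrons to the oxygenases, had 12.8 to 14.99 TPM in libraries labelled DKO and 15.3 to 20.2 TPM in those labelled WT (log2 fold change -0.28; edgeR adjusted p = 0.0653).

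Clpx was the higher gene. It encodes a mitochondrial unfoldase known to act on the aminolevulinate synthases. It had 125, 107 and 116 TPM in libraries labelled DKO and 103, 91.8 and 95.5 TPM in those labelled WT, without overlap. Clpx rose by 0.32 on the log2 scale (SE 0.0880, edgeR adjusted p = 0.0437). With the fragment length as a covariate its estimate was 0.02 (edgeR adjusted p = 0.999), in a fit that separates fragment length poorly from genotype. Clpx missed the threshold without DKO replicate 1 (log2 fold change 0.24, edgeR adjusted p = 0.162) or DKO replicate 2 (0.35, 0.0688). The same held without WT replicate 2 (0.24, 0.157) or WT replicate 3 (0.31, 0.134). Those fits called 11, 655, 13 and 7 genes over the whole table. The other 6 mitochondrial partners of synthesis in the list all had estimates below 0, and none passed the threshold. Among them Pgrmc1, a heme-binding partner of Fech, had 81.5 to 82.8 TPM in libraries labelled DKO and 83.4, 119 and 104 TPM in those labelled WT (log2 fold change -0.27; edgeR adjusted p = 0.0776). Slc25a38, the mitochondrial carrier that brings in glycine, had 12.8 to 16.9 TPM against 15.6 to 19.1 TPM (log2 fold change -0.25; edgeR adjusted p = 0.137).

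Regulators of these genes did not pass the threshold (0 of 8 by edgeR and 0 by DESeq2). At an unadjusted p under 0.05 there was 1 of 8, Keap1, which holds NFE2L2 inactive, with 37.9 to 43.8 TPM in libraries labelled DKO and 49.1 to 54.3 TPM in those labelled WT (log2 fold change -0.19; edgeR adjusted p = 0.106). Nfe2l2, the activator of Hmox1 under oxidative stress, had 12.7 to 14.9 TPM in libraries labelled DKO and 13.1 to 15.8 TPM in those labelled WT (log2 fold change 0.03; edgeR adjusted p = 0.828). Bach1, the heme-sensing repressor of Hmox1, was low at 0.93 to 1.02 against 0.78 to 1.42 TPM (log2 fold change -0.07; edgeR adjusted p = 0.816). Other targets of NFE2L2 (Nqo1, Gclm, Gclc, Txnrd1, Srxn1 and Slc7a11) had log2 fold changes of -0.24 to 0.16, with 3 of 6 below 0 and 0 called by edgeR (0 at an unadjusted p under 0.05, and 0 by DESeq2). The 3 genes that turn heme into heme a or heme c (Cox10, Cox15 and Hccs) and the 3 heme transport genes (Slc48a1, Flvcr1 and Flvcr2, the last pair listed under older symbols) were also not called by edgeR or DESeq2. Of these 6, Slc48a1 alone had an unadjusted p under 0.05.

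**Figure D4:**
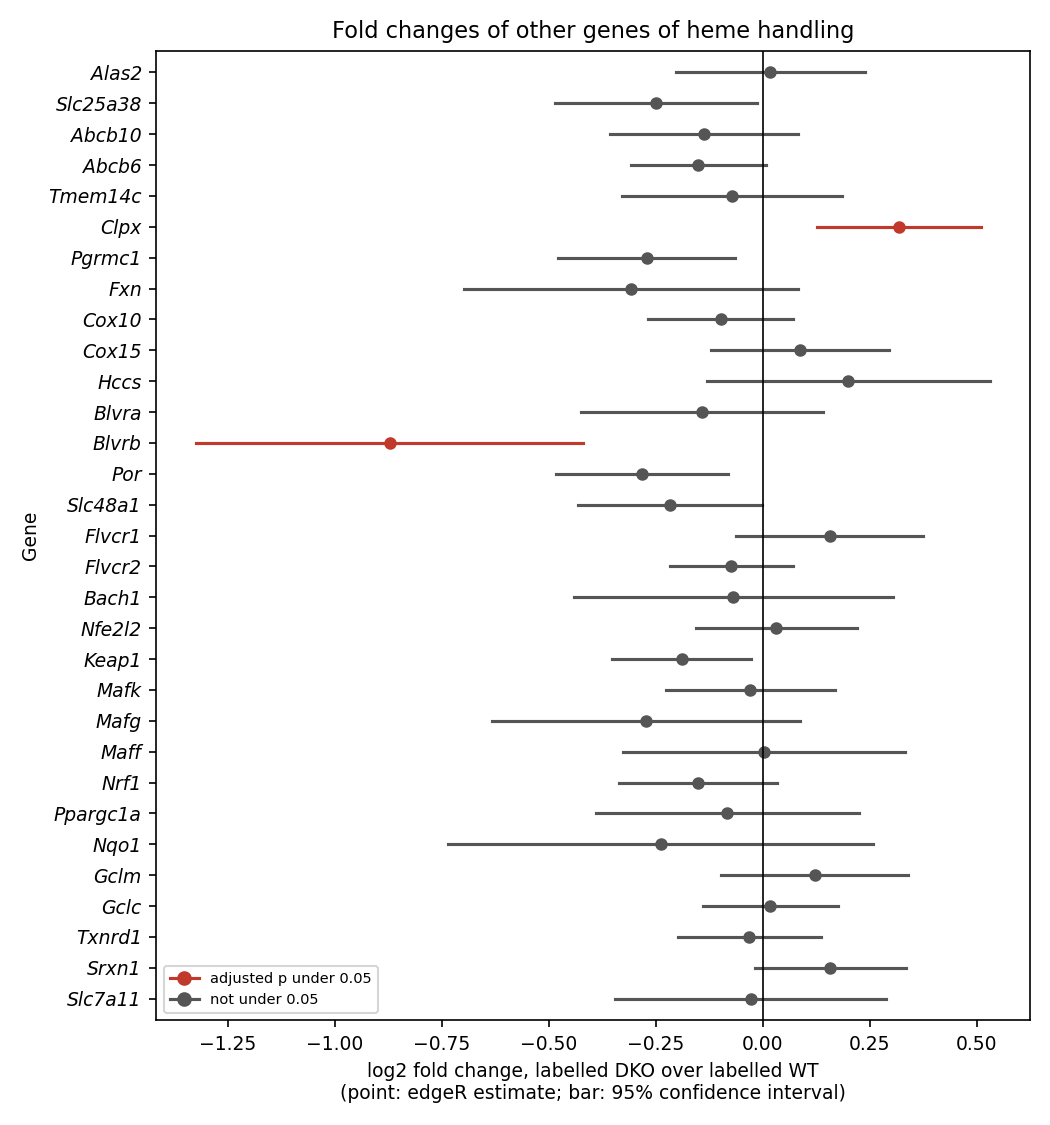
Log2 fold change, labelled DKO over labelled WT, with its 95% confidence interval for each of the 31 other genes of heme handling in the edgeR fit, with those at an adjusted p under 0.05 in red. Blvrb (-0.87) and Clpx (0.32) are the genes in red.

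The genes most like Alas1 across the 6 libraries were Fam219b and Crlf3 (Pearson r of log2 CPM 0.988 and 0.986), and 11 of 13727 genes compared (average log2 CPM 1 or higher) reached an r of 0.95. Those most like Hmox1 were Swi5 and Ndufs5 (r 0.997 and 0.995), and 205 genes reached 0.95. These values describe 6 libraries that share depth and fragment length differences, and carry no test.

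**Figure D5:**
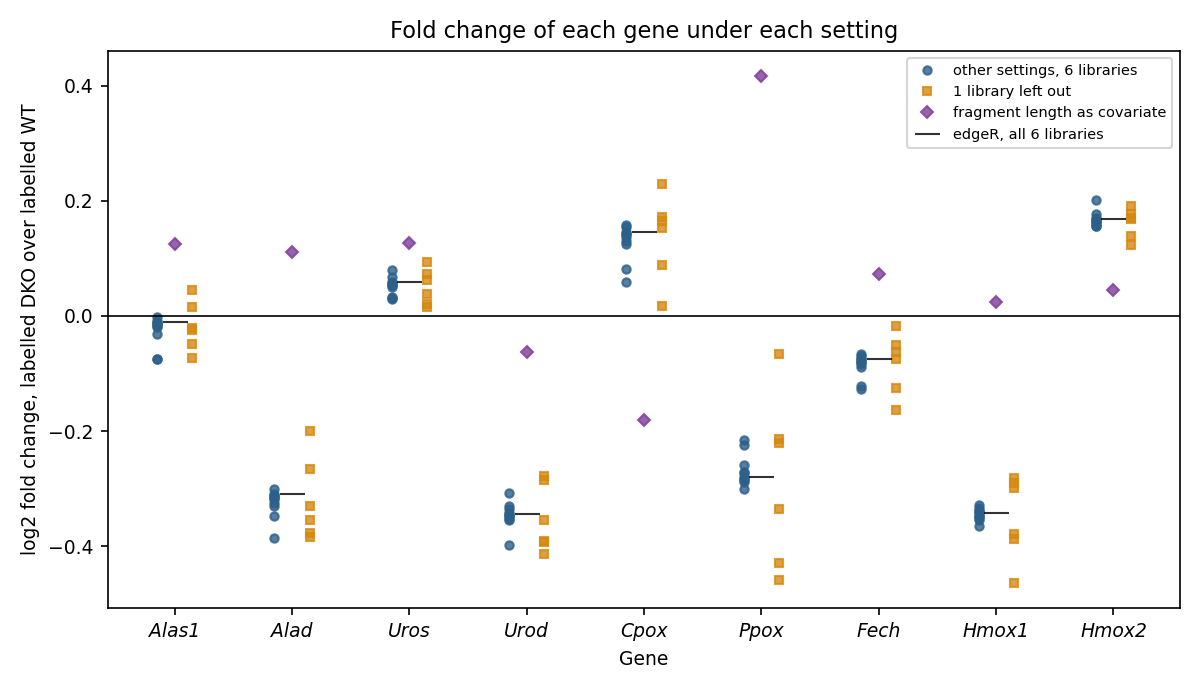
Log2 fold change of each gene, labelled DKO over labelled WT, in the edgeR fit of all 6 libraries (black dash), in the other settings that kept all 6 (circles; the covariate fit as diamonds) and with 1 library left out (squares). Alad, Urod and Hmox1 lie between -0.20 and -0.46 in all fits except the one with fragment length as covariate, where they lie at 0.11, -0.06 and 0.02. That fit separates fragment length poorly from genotype.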

How the data were processed

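Whole-testis RNA was sequenced in 6 libraries, 3 per genotype label. The files are gene-level RSEM output, per the file headers. Expected counts, as deposited, were rounded; 93.2% of them were already whole. TPM, also deposited by the authors, is scaled to transcript length and to 1 total per library. The deposited FPKM values were not used. STAR 2.7.0f, RSEM 1.2.31, DESeq2 1.12.3 and build mm10 are named in the submitters' processing notes; strand handling is not given in the sources used here. Genes were filtered by filterByExpr, scaled by TMM and tested with the quasi-likelihood test of edgeR 4.0.16 over all genes, with Benjamini-Hochberg adjustment; genotype was the only term. The standard error is the log2 fold change divided by the square root of F. DESeq2 1.42.0 and limma 3.58.1 gave alternatives. The edgeR step was tested on simulated counts with the same spread setting for all genes and no fragment length difference between groups. That test therefore does not cover the fragment length difference in these data. Each library's fragment length was recovered, in genes above 3000 bases, as the median gap between the length and effective length columns plus 1.

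The members, lists and alternatives were chosen with earlier results of these data known. Named genes are all members, both targeted genes, called partners and preset partners (Alas2, Blvra, Blvrb, Bach1 and Nfe2l2), called markers and, as no member was called, the 2 genes most like Alas1 and Hmox1. Other partners, overlapping genes and other markers were named after their values were seen. Some listed genes are not reported here. No pair of libraries agreed within counting noise (chi-square per degree of freedom at least 6.36), so none was counted as the same library sequenced again. This check cannot show whether libraries share an animal.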

Additional observations from a re-analysis of the deposited data

How the results depend on the processing

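Of 11 alternatives that kept all 6 libraries, DESeq2 called 2 members, against 20.8% of all genes with a DESeq2 adjusted p. The other 10 called 0, against 0.00584% to 14.0% of all genes. Leaving out 1 library gave 0 to 2 called members: 1 without DKO replicate 3 (17.7% of all genes) and 2 without WT replicate 1 (11.7%). Of the 31 partner genes 2 were called, against 10.8% of all tested genes. DESeq2 called 4 (20.8%), limma on log2(TPM + 1) called 0 (4.3%) and on log2(TPM + 0.1) called 0 (5.53%). The fragment length covariate left 0 (0.00584%). Fits without 1 library called 0 to 4 of them, against 0.0402% to 17.7% of all genes. With the fragment length as a covariate, which does not overlap between the labels, 1 of all 17110 genes was called, and estimates reversed to 0.13 for Alas1, 0.11 for Alad, -0.18 for Cpox, 0.42 for Ppox, 0.0726 for Fech and 0.0244 for Hmox1; the cause was not tested. The Alas1 estimate ranged from -0.0722 to 0.0456 when 1 library was left out, turning above 0 without DKO replicate 1 or WT replicate 3, within its error. The length difference, labelled DKO minus labelled WT, ranged in such fits from -1.50 to 0.0733 bases for Alad, above 0 without DKO replicate 2, and from -23.4 to 4.22 bases for Uros, above 0 without DKO replicate 3. Called genes over the whole table fell to 7 without WT replicate 3, 11 without DKO replicate 1 and 13 without WT replicate 2. A missed threshold there therefore says little about single members or partner genes. Ppox had the lowest counts of the members in every library (60 to 193) and the widest interval. Its estimate ranged from -0.46 to -0.07 when 1 library was left out. Whether low counts or the spread between libraries set the width of that interval was not tested. No paired analysis was possible because the replicate numbers only follow the order of deposition.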
